A study of Mus musculus with 3 samples.

Results

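The Hspa1b-positive cells of plate 3 were chosen by their Hspa1b count, as all cells of that plate with at least 1 transcript of this gene, which encodes an inducible cytosolic HSP70 chaperone. They numbered 116 of the 324 cells of plate 3, in a series of 697 cells, and the other 208 cells of plate 3 held no Hspa1b transcript. The series profiled naive CD4 T cells of spleen and lymph node from C57BL/6 mice aged 8 to 12 weeks, with males and females pooled, freshly sorted and given no treatment. Single live cells with a naive surface phenotype, carrying TCRb, CD4 and CD5 and lacking CD8, CD25 and CD44, were index-sorted over the range of surface CD5 into plates of 384 wells and sequenced by SORT-seq, which counts 3' ends with unique molecular identifiers (UMIs). There are 3 such plates, and both groups compared here come from the same plate. The labels do not say which animals or preparation its cells came from.

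HSP70 proteins bind unfolded stretches of other proteins and, with HSP40 (DnaJ) partners and nucleotide exchange factors such as HSP110, help them refold. When proteins unfold, the transcription factor HSF1 binds repeated heat shock elements and raises transcription of Hspa1a, Hspa1b, Dnajb1 and Hsph1 within minutes, while Hspa8 encodes the HSP70 that resting cells always make. Immediate early genes such as Fos, Fosb and Jun, which encode parts of the AP-1 transcription factor, respond to many stimuli, among them tissue dissociation.

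Hspa1b chose the cells, so its own values are a description. In the positive cells it had a median of 2 UMIs and at most 29.1, with 50 cells at 1 UMI just inside the threshold and 25 cells at 5 or more, against 0 in the 208 cells just outside it. The 10 cells with most Hspa1b held 34.8% of all its UMIs in plate 3. Hspa1b was thus spread unevenly: its variance over plate 3 cells was 6.82 times its mean, against a median of 2.42 for the 390 genes of like mean level, of which 3 lay higher. Plates 1 and 2 had 8 of 172 and 9 of 201 positive cells, and Hspa1b made up 2.77 UMIs per 10000 in plate 3, with 0.262 and 0.171 for plates 1 and 2.

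Whether a cell passed the threshold moved with how many UMIs it gave. With plate 3 cells split by total UMIs into 4 equal groups, the positive share was 23.5% in the shallowest and then 30.9%, 33.3% and 55.6%, while Hspa1b per 10000 UMIs was 2.39, 2.26, 2.83 and 3.01. Positive cells had a median of 5021 UMIs, against 3294 in cells at 0. Each positive cell was therefore paired with a cell at 0 of nearly equal total, which worked for 115 cells and gave medians of 4951 UMIs in positive cells and 4959 in matched cells. The pairs then held similar numbers of genes, 1560 in positive cells and 1572 in matched cells, and similar shares of mitochondrial transcripts, 14.5% and 14.9%. All comparisons below use these pairs unless stated otherwise.

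**Figure D1:**
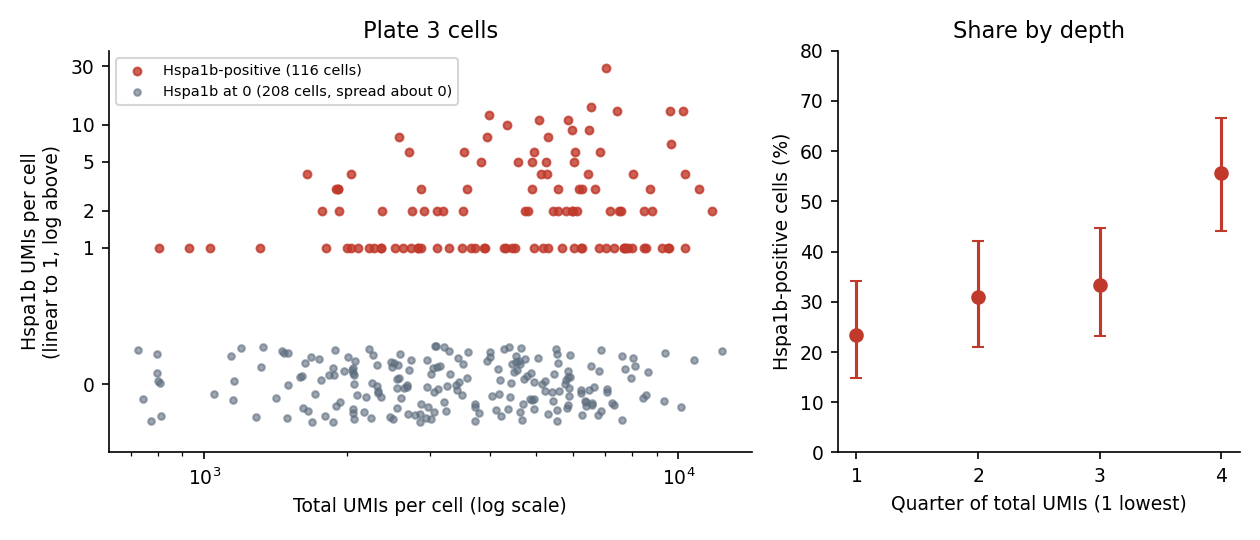
Left, Hspa1b UMIs against total UMIs (log scale) for each plate 3 cell, with 116 positive cells in red and 208 cells at 0 in grey; right, the share of positive cells in each of 4 equal groups by total UMIs with 95% binomial intervals. The positive share was 23.5% in the shallowest and 55.6% in the deepest group.

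Hspa1a, the neighbouring and nearly identical HSP70 gene, stood apart from the other chaperone genes. It was found in 25 of 115 positive cells (21.7%, exact 95% interval 14.6 to 30.4), against 8 of 115 matched cells (6.96%, 3.05 to 13.2). Its UMIs summed to 68.0 in positive cells and 18.0 in matched cells, a ratio of 3.62 (2.13 to 6.46). All intervals here are exact binomial or Poisson ones and cover counting error only. Of the 4969 other genes with at least 30 UMIs, 346 had a ratio interval wholly above 1 and 422 wholly below 1. Single intervals that leave out 1 are to be read against that background. Since plate 3 is 1 sample, no p-value was drawn from its cells.

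Hspa1a also followed the amount of Hspa1b. Its level was 0.359 UMIs per 10000 in the 208 cells at 0, 0.721 in the 50 cells with 1 Hspa1b UMI, 0.826 in the 41 cells with 2 to 4, and 2.31 in the 25 cells with 5 or more. The intervals of the lowest and the highest level, 0.241 to 0.516 and 1.59 to 3.24, did not overlap, while those of neighbouring low levels did. In cells thinned at random to 2092 UMIs, Hspa1a was found in 14 of 102 positive cells (13.7%) and 9 of 157 cells at 0 (5.73%); 14 positive cells and 51 cells at 0 were too shallow to thin. Most positive cells, 91 of 116, held no Hspa1a UMI, and 14 of the 208 cells at 0 did hold one or more.

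Both genes lie on the minus strand of chromosome 17 in GRCm38, the assembly of mm10, with Hspa1b at chr17:34956436-34959238 and Hspa1a at chr17:34969190-34972156. Their transcripts have 2803 and 2967 bases and share a run of 638 bases. Of all 75-base windows of Hspa1b, 55.8% occur unchanged in Hspa1a, so reads from those windows cannot be assigned to one gene. In the last 600 bases, where a 3' method counts, 0 windows of either gene occur in the other. How the authors assigned reads that match both is not stated in the sources at hand, and the part of shared reads in the joint detection was not tested.

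The promoters show how alike the pair is, and Hsph1 is set beside them as a heat shock gene whose level did not keep pace with Hspa1b. The windows run from 250 bases before to 50 bases after the RefSeq start (GRCm38.p6, minus strand), Hspa1b at chr17:34959189-34959488, Hspa1a at chr17:34972107-34972406 and Hsph1 at chr5:149636287-149636586. Capitals mark the heat shock element cores GAANNTTC and TTCNNGAA, each of which is its own reverse complement, so both strands are covered, and adjoining cores may overlap.
Hspa1b: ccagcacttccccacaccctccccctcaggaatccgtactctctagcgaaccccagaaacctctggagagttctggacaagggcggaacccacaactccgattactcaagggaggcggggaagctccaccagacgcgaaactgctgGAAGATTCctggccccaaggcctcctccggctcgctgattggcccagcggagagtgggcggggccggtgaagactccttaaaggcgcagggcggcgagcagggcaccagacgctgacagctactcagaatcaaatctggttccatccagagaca
Hspa1a: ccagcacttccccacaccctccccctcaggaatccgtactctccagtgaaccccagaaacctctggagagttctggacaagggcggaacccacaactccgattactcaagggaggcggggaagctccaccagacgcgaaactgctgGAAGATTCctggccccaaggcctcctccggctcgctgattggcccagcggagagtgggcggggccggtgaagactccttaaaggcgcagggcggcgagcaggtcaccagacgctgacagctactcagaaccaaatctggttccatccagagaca
Hsph1: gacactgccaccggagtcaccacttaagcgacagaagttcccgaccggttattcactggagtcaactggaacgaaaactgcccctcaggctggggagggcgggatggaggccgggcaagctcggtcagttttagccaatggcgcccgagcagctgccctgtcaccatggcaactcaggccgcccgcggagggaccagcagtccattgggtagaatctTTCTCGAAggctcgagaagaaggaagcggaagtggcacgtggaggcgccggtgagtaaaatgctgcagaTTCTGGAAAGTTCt

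The Hspa1b and Hspa1a windows differ at 4 of 300 bases, T44C, C47T, G249T and T276C, counted from 1 at the 5' end with the Hspa1b base first. Both have 1 core, at base 147, and the Hsph1 window has 3. Such a core occurs in 15.1% of all 32851 RefSeq promoter windows of this length. A gene was counted as having a core if any of its windows had one, as was so for 17.0% of 27025 genes. Of the 30 heat shock and chaperone genes with a matched promoter and enough UMIs, the 12 with a core had a median log2 ratio of -0.08, and the 18 without one had -0.01.

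The rest of the heat shock and chaperone list stayed near a ratio of 1. Without Hspa1a and Hspa1b, 39 members had at least 30 UMIs over both groups. None of these 39 was 2-fold higher or 2-fold lower, 19 had a ratio above 1, and their median log2 ratio was -0.00. The interval lay wholly above 1 for 4 of them and wholly below 1 for 1. Over all 4969 genes with at least 30 UMIs, 3.48% were at least 2-fold higher, 3.8% at least 2-fold lower, 2382 of the 4969 had a ratio above 1, and the median log2 ratio was -0.02. Summed, the list without the HSP70 pair was at 81.5 UMIs per 10000 (79.5 to 83.5) in cells at 0, 82.9 with 1 Hspa1b UMI, 86.7 with 2 to 4, and 92.1 (87.2 to 97.3) with 5 or more. The intervals of the end groups do not overlap, those of neighbouring groups do, and these cells were not matched for total UMIs. Matched for total UMIs, the 25 cells with 5 or more did not show a list-wide increase. Of 23 members with at least 30 UMIs there, 9 had a ratio above 1. Their median log2 ratio was -0.17, against -0.01 over all 1394 genes of that comparison. The cells are named here by Hspa1b alone, the gene that chose them.

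Genes that HSF1 is known to drive lay on both sides of 1. Hsp90aa1, the stress-inducible HSP90, had 295 UMIs in positive cells and 226 in matched cells, a ratio of 1.25 (1.05 to 1.49). At 5 or more Hspa1b UMIs the matched Hsp90aa1 ratio was 0.980 (0.709 to 1.35), and at 2 or more it was 1.16 (0.933 to 1.46). Without cells holding a Foxp3 UMI and the cell with most Kcnq1ot1 it was 1.09 (0.897 to 1.33). Against all cells at 0 it was 1.24 (1.06 to 1.46), and in thinned cells 1.37 (1.07 to 1.75). From 0 to 5 or more Hspa1b UMIs, Hsp90aa1 was at 4.08, 5.22, 4.59 and 5.52 UMIs per 10000. Dnajb1, an HSP40 that feeds substrates to HSP70, had 65 UMIs in positive cells and 86 in matched cells, a ratio of 0.724 (0.516 to 1.01). Against all cells at 0 the Dnajb1 ratio was 0.662 (0.485 to 0.894), and in thinned cells 0.627 (0.364 to 1.05). Dnaja1, another HSP40, had 196 UMIs in positive cells and 206 in matched cells, a ratio of 0.911 (0.745 to 1.11). Against all cells at 0 the Dnaja1 ratio was 0.830 (0.691 to 0.993), and in thinned cells 0.654 (0.481 to 0.880). Without Foxp3 cells and the top Kcnq1ot1 cell it was 0.749 (0.597 to 0.938), and at 5 or more Hspa1b UMIs 1.35 (0.888 to 2.06). Hsph1, an HSP110 exchange factor, had 68.0 UMIs in positive cells and 52.0 in matched cells, a ratio of 1.25 (0.860 to 1.83). By Hspa1b amount, Dnajb1 was at 1.67, 1.19, 0.964 and 1.19 UMIs per 10000 and Hsph1 at 0.880, 1.27, 1.10 and 0.979, from 0 to 5 or more Hspa1b UMIs, so neither kept climbing with Hspa1b. The mitochondrial chaperonin pair Hspd1 and Hspe1 had ratios of 0.921 (0.612 to 1.38) and 0.998 (0.813 to 1.23).

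Hsf1 itself, the regulator, had 39 UMIs in 22 positive cells and 66.0 UMIs in 26 matched cells, a ratio of 0.566 (0.371 to 0.853). Its transcript level says nothing of the protein's activity, and in the comparison of cells with 5 or more Hspa1b UMIs its log2 ratio was -0.01. At the upper end of the list, Hspa9, the mitochondrial HSP70, had a ratio of 1.54 (0.967 to 2.50). Hspa14, a ribosome-bound HSP70, had 1.51 (0.902 to 2.57), Fkbp4, an HSP90 co-chaperone, 1.48 (1.01 to 2.19), and Cct7, a chaperonin subunit, 1.41 (0.973 to 2.05). Each of these has an interval reaching to 1 or close to it.

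The abundant constitutive chaperones Hspa8 and Hsp90ab1 sat slightly above 1. Hspa8 had 709 UMIs in positive cells and 574 in matched cells, a ratio of 1.18 (1.06 to 1.32). In thinned cells the Hspa8 ratio was 1.08 (0.906 to 1.29), with Hspa8 found in 82.4% of positive cells and 83.4% of cells at 0. By Hspa1b amount, the Hspa8 level was 9.94, 10.4, 11.8 and 14.6 UMIs per 10000, with an increase at each step as for Hspa1a. Intervals of neighbouring groups overlapped, and those of the end groups, 9.27 to 10.7 and 12.6 to 16.7, did not. In the 25 cells with 5 or more Hspa1b UMIs the median Hspa8 level per cell was 14.8 UMIs per 10000 (range 3.32 to 24.9), against 8.70 (0 to 50.2) in the 208 cells at 0, so the groups overlapped over most of their range. Matched for total UMIs, those 25 cells had a ratio of 1.28 (1.04 to 1.58). Hsp90ab1, the constitutive HSP90, had 805 UMIs in positive cells and 695 in matched cells, a ratio of 1.11 (1.001 to 1.23).

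**Figure D2:**
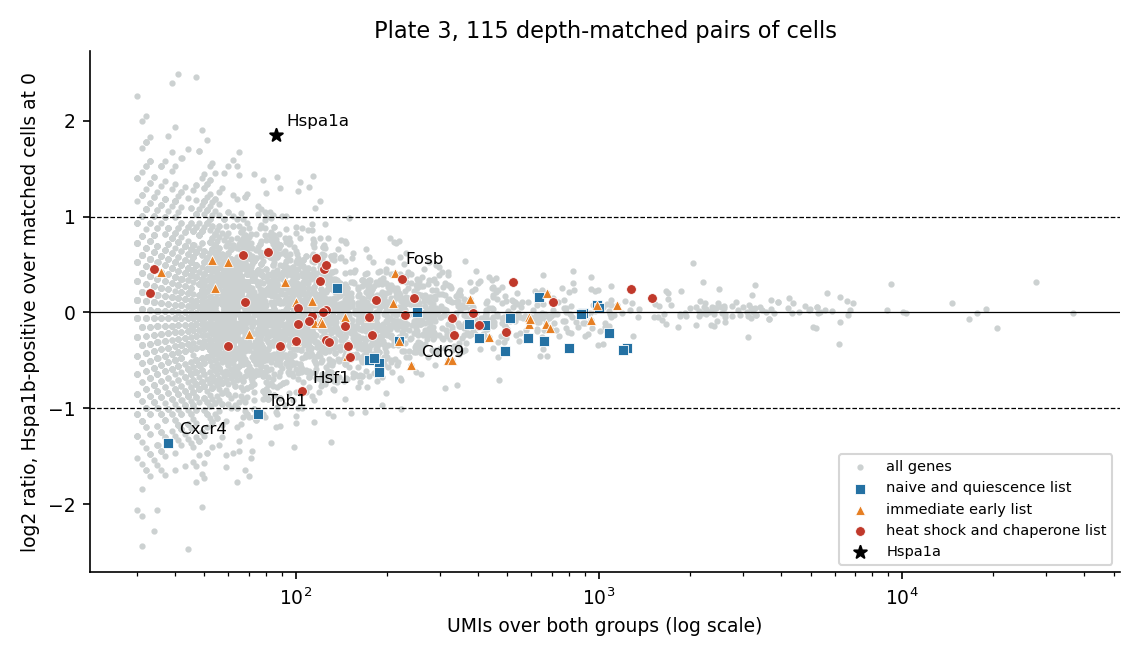
Log2 ratio of positive over matched cells against UMIs over both groups (log scale) for genes with at least 30 UMIs, with dashed lines at 2-fold. Hspa1a (star) stands at 1.85, while the heat shock list (circles) and the immediate early list (triangles) lie inside the dashed lines and most of the naive and quiescence list (squares) lies below 0.

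Immediate early genes, which the marker Fosb would lead one to look for, were as a list at similar summed levels in both groups. Of 32 members with at least 30 UMIs, none was past 2-fold in either direction, 13 had a ratio above 1 and the median log2 ratio was -0.06. Fosb was found in 59 of 115 positive cells and 49 of 115 matched cells, with 124 UMIs in positive cells and 89.0 in matched cells, a ratio of 1.33 (1.01 to 1.77). Against all 208 cells at 0 its ratio was 1.09 (0.853 to 1.39), and after thinning it was found in 33.3% of positive cells and 31.2% of cells at 0. By Hspa1b amount Fosb was at 1.91, 2.38, 2.11 and 1.54 UMIs per 10000. The last value rests on 22 UMIs, and its interval, 0.964 to 2.329, overlapped those of the other groups. Matched for total UMIs, the cells with 5 or more Hspa1b UMIs had a Fosb ratio of 1.212 (0.621 to 2.398). At 2 or more it was 1.601 (1.074 to 2.412).

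Fos and Jun, the partners of AP-1, had ratios of 0.964 (0.817 to 1.14) and 0.947 (0.832 to 1.08). Fos was found in more of the positive cells, 91 of 115 (79.1%, 70.6 to 86.1), against 77 of 115 matched cells (67.0%, 57.6 to 75.4). After thinning it was found in 66.7% of positive cells (56.6 to 75.7) and 52.2% of cells at 0 (44.1 to 60.3). In both comparisons the intervals overlap. Its summed UMIs were 296 in positive cells and 294 in matched cells, with at most 13.0 in 1 positive cell and 21.1 in 1 matched cell. The lowest ratios in the list belonged to Cd69, an early activation receptor that keeps T cells in tissue, at 0.684 (0.524 to 0.890), Nfkbia, an inhibitor of NF-kB, at 0.708 (0.564 to 0.886), and Dusp2, a phosphatase of MAP kinases, at 0.710 (0.564 to 0.892). The highest were Socs3, an inhibitor of cytokine signalling, at 1.46 (0.816 to 2.66), and Myc, a growth regulator, at 1.44 (0.833 to 2.52). Cd69 was at 2.20, 1.99, 1.93 and 0.839 UMIs per 10000 from 0 to 5 or more Hspa1b UMIs. Intervals of neighbouring groups overlapped, and those of the end groups, 1.89 to 2.55 and 0.433 to 1.47, did not. In the 25 cells with most Hspa1b it had 12 UMIs, against 42.0 in their matched cells, a ratio of 0.283 (0.136 to 0.548). This rests on few UMIs, and in thinned cells the Cd69 ratio was 0.914 (0.595 to 1.39). Against the same matched cells, Fos had a ratio of 0.577 (0.425 to 0.780). By Hspa1b amount, though, Fos was at 5.01 UMIs per 10000 in cells at 0 and 4.96 at 5 or more.

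**Figure D3:**
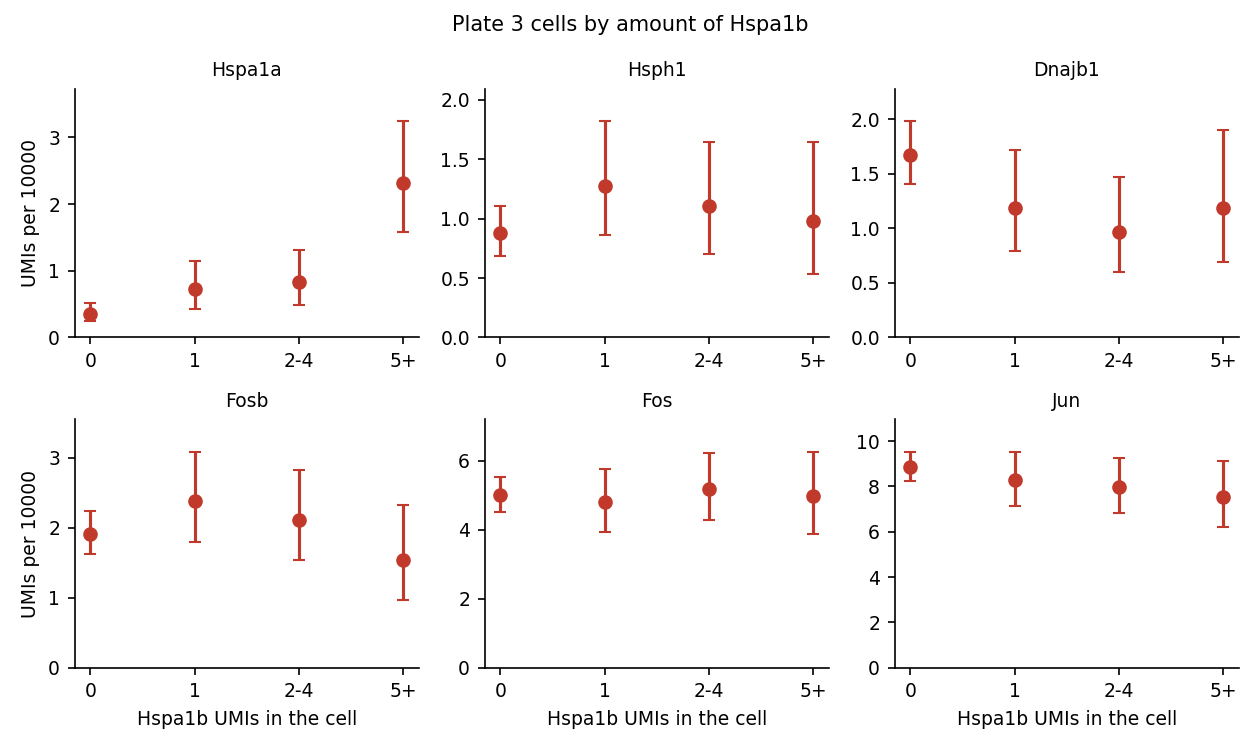
Level (UMIs per 10000, with exact Poisson 95% intervals) of 6 genes in plate 3 cells with 0, 1, 2 to 4 and 5 or more Hspa1b UMIs (208, 50, 41 and 25 cells). Hspa1a reached 2.31 in the highest group, against 0.359 at 0, while Hsph1, Dnajb1, Fosb, Fos and Jun did not increase step by step.

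Naive and quiescence genes, which hold a T cell at rest and route it through lymph nodes, leaned the other way. Of 25 members, 20 had a ratio below 1 and 5 above, against 2382 of all 4969 genes above 1, and their median log2 ratio was -0.27, against -0.02. Past 2-fold were 0 higher and 2 lower, where 3.8% of all genes were lower: Tob1, an inhibitor of proliferation, with 25 UMIs in positive cells and 50 in matched cells (ratio 0.479, 0.284 to 0.789), and Cxcr4, a chemokine receptor, with 11 UMIs in positive cells and 27 in matched cells (0.390, 0.175 to 0.812). Among abundant members, Satb1, a chromatin organiser, had 531 UMIs in positive cells and 669 in matched cells (0.760, 0.677 to 0.853). Btg1, which slows proliferation, had 556 UMIs in positive cells and 688 in matched cells (0.774, 0.691 to 0.866). Ets1, a T cell transcription factor, and Ccr7, the lymph node homing receptor, had ratios of 0.773 (0.670 to 0.891) and 0.755 (0.629 to 0.906).

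Other defining naive genes did not share this. Klf2, which drives exit from lymph nodes, had a ratio of 1.06 (0.930 to 1.20), and S1pr1, the egress receptor, 0.986 (0.862 to 1.13). Per cell, the summed list had a median of 109 UMIs per 10000 in positive cells and 125 in matched cells, and the positive cell was the lower one in 71 of 115 pairs. The ranges overlapped widely, 28.2 to 220 in positive cells and 52.97 to 206 in matched cells. Across the alternatives tried, the median log2 ratio of the list was between -0.16 and -0.28, and Btg1 reached 1.09 (0.855 to 1.39) at 5 or more Hspa1b UMIs. The summed heat shock list, without its HSP70 pair, had a median per cell of 83.6 UMIs per 10000 in positive cells and 77.1 in matched cells, with the positive cell higher in 65 of 115 pairs. The immediate early list had 92.4 in positive cells and 93.9 in matched cells, with the positive cell higher in 57 pairs.

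**Figure D4:**
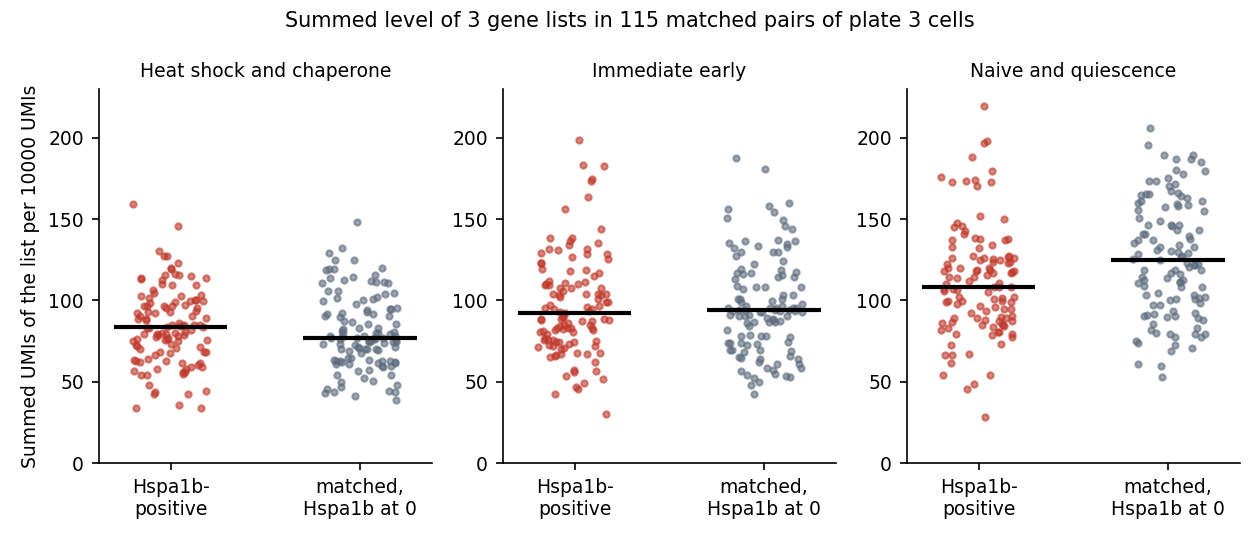
Summed UMIs of each list per 10000 UMIs in each of 115 positive cells (left) and their matched cells at 0 (right), with bars at the medians. The medians are 83.6 and 77.1 for heat shock, 92.4 and 93.9 for immediate early, and 109 and 125 for naive and quiescence genes.

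Other stress programmes were counted against the same background, in which 3.48% of all genes were 2-fold higher and 3.8% 2-fold lower. Of 14 genes of the unfolded protein response, which answers misfolding in the endoplasmic reticulum, 10 had a ratio above 1 and the median log2 ratio was 0.28. The only one past 2-fold was Dnajb9, an HSP40 of the endoplasmic reticulum, with 32 UMIs in 17 positive cells and 15.01 in 8 matched cells (ratio 2.04, 1.07 to 4.06). In the matched cells 46.7% of its UMIs came from 1 cell. Ddit3, a stress-induced death regulator below the 30-UMI minimum, had 3 UMIs in positive cells and 15 in matched cells. Of 13 oxidative stress genes none was past 2-fold, with a median of 0.02. Of 8 p53 and apoptosis genes 1 was, Bcl2l11, which encodes the death factor BIM, lower at 0.460 (0.270 to 0.762), with a median of -0.13. Of 31 proteasome and ubiquitin genes, Psma4 was higher at 2.01 (1.27 to 3.25) and Psmb5 lower at 0.356 (0.173 to 0.689), both subunits of the same core particle, with a median of 0.05.

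Across the whole transcriptome, ratios past 2-fold came from genes with few UMIs. They made up 13.7% of 2111 genes with 30 to 60 UMIs, 4.35% of 1518 genes with 60 to 120, 0.777% of 901 genes with 120 to 300, and 0 of 299 and 0 of 140 genes in the ranges from 300 and from 1000 UMIs. Hspa1a, at 86.1 UMIs over both groups, lay above every gene of its range, where the next was Nipsnap3b at a log2 ratio of 1.67.

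The genes with the ratio bounds farthest above 1 shared no list. Slc3a2, the heavy chain of the CD98 amino acid transporter, had 84.0 UMIs in 41 positive cells and 30 in 20 matched cells, a ratio of 2.68 (1.75 to 4.21). Rheb, the GTPase that activates mTORC1, had 80.02 UMIs in 30 positive cells and 31 in 21 matched cells, 2.47 (1.61 to 3.87). Among chromatin and transcription genes were Kdm2b, a histone demethylase, at 3.83 (1.73 to 9.62), Zbtb20, a zinc finger repressor, at 3.22 (1.61 to 6.999), and Zzz3, a subunit of a histone acetyltransferase complex, at 2.41 (1.55 to 3.84).

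The other higher genes given here had ratios between 2.60 and 3.99. They were Csnk2a2, a catalytic subunit of casein kinase 2, Nipsnap3b, Trak2, which ties mitochondria to motor proteins, Alkbh1, a demethylase of nucleic acids, Fchsd2, an endocytic membrane protein, Esf1, a factor of ribosomal RNA processing, Fam111a, a protease that acts at replication forks, and Zzef1. Each of the 14 genes that the naming rule took had at most 20% of the positive cells' UMIs in 1 cell, as the rule required. Against all cells at 0, 10 of the 14 were past 2-fold; the others were Slc3a2, Fam111a, Fchsd2 and Zzef1, at log2 ratios of 0.81, 0.79, 0.80 and 0.87. In thinned cells 8 were, and Slc3a2, Fam111a, Zbtb20, Alkbh1, Fchsd2 and Trak2 were at 0.75, 0.29, 0.38, 0.92, 0.43 and 0.62.

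At the lower end, Pou5f2, a POU-domain transcription factor, had 7 UMIs in 6 positive cells and 37.0 in 18 matched cells, a ratio of 0.181 (0.0681 to 0.412). Med30 and Med1, both subunits of Mediator, which links transcription factors to RNA polymerase, had ratios of 0.391 (0.261 to 0.576) and 0.326 (0.169 to 0.598). Nploc4, a cofactor of the unfoldase p97, had 0.302 (0.144 to 0.591), and Vcp, which encodes p97, had 0.612 (0.463 to 0.807). Rpf1, a ribosome assembly factor, was at 0.293, Acap2, which switches off ARF6, at 0.307, and Aebp2, a partner of Polycomb complex PRC2, at 0.378. Ccdc117, 5830418K08Rik and C230081A13Rik had ratios of 0.239, 0.184 and 0.245. All 10 were past 2-fold against all cells at 0, and 8 were in thinned cells.

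The positive cells of plates 1 and 2 gave a test that plate 3 alone could not. Summed and matched in the same way, plate 3 contributed 115 pairs of cells, plate 1 contributed 8 and plate 2 contributed 9. Of 960 genes tested with edgeR's quasi-likelihood method, 0 passed an adjusted p of 0.05 (0%), against 27 at an unadjusted p under 0.05, 13 higher and 14 lower. DESeq2 also called 0, with 15 at an unadjusted p under 0.05. Hspa1b is left out of these counts, and Hspa1a had too few UMIs in the small plates to be tested. Its positive cells there held 4 UMIs in plate 1 and 2 in plate 2, against 0 in the matched cells of both. Nothing says that the plates are separate animals, so this p measures only the spread between plates, which may be technical.

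The genes of smallest p did not pass, at an edgeR adjusted p of 0.999. Higher were A130077B15Rik (log2 fold change 1.14, SE 0.38) and the imprinted antisense RNA Kcnq1ot1 (0.50, SE 0.19), with Gm17821 and Rpl7, a ribosomal protein gene, at 0.49 and 0.46. Lower were Pitpnm2, a phosphatidylinositol transfer protein gene, at -1.40, Dock10, an activator of small GTPases, at -1.26, Atp6v1d, a proton pump subunit, at -1.14, and Son, a splicing factor, at -0.97. The lists had 0 members called. The median log2 fold change was -0.04 over 15 heat shock genes, -0.01 over 17 immediate early genes and -0.23 over 21 naive and quiescence genes, against -0.04 over all 960. It was as low over 19 genes of the T cell receptor list, at -0.23 with 2 above 0, and over 7 interferon genes, at -0.25 with 0 above 0. In plates 1 and 2 alone, whose positive cells were taken by the same Hspa1b threshold, the medians were -0.48 for T cell receptor genes (1 of 15 above 0), -0.34 for interferon genes (1 of 4), -0.23 for naive and quiescence genes (5 of 17), 0.13 for heat shock genes (7 of 10) and 0.15 for immediate early genes (7 of 10), against -0.03 over all 642 genes tested.

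Those small plates say little of single genes. The 14 genes highest in plate 3 had 4 to 23.0 UMIs over both groups and both plates, and 2 of them had a ratio above 1 in both plates. The 10 lowest had 0 to 21.0 UMIs, and 2 had a ratio below 1 in both. Fosb had 0 UMIs in the positive cells of plates 1 and 2, against 12.0 and 4 in their matched cells.

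Plate 3 as a whole had more AP-1 and some more heat shock transcripts than the other plates, and its cells without Hspa1b shared this. In cells at 0, Fosb was at 1.91 UMIs per 10000 in plate 3, against 0.595 and 0.492 for plates 1 and 2, and Jun was at 8.86 in plate 3, against 3.48 and 3.01. The positive cells of plate 3 had 2.08 for Fosb and 8.00 for Jun, close to the plate's own cells at 0. Hsph1 in cells at 0 was at 0.880 in plate 3, against 0.290 and 0.379 in plates 1 and 2, and Dnajb1 at 1.67, against 0.609 and 0.852. Even Hspa1a, at 0.359 UMIs per 10000 in plate 3 cells at 0, had 0 UMIs in those of plate 1 and 2 UMIs in those of plate 2.

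This raised level was not general. Of 7263 genes, 108 (1.49%) were at least 2-fold higher in the Hspa1b-zero cells of plate 3 than in those of both other plates. In the heat shock list these were 2 of 40, Hsph1 and the HSP40 gene Dnajb4, and in the immediate early list 3 of 36, Fosb, Jun and the clock gene Per1. Hspa8 was at 9.94 in plate 3, against 8.25 and 9.74 in plates 1 and 2. With 1 plate set against 2, plate, sort and library cannot be told apart, and no test was made.

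**Figure D5:**
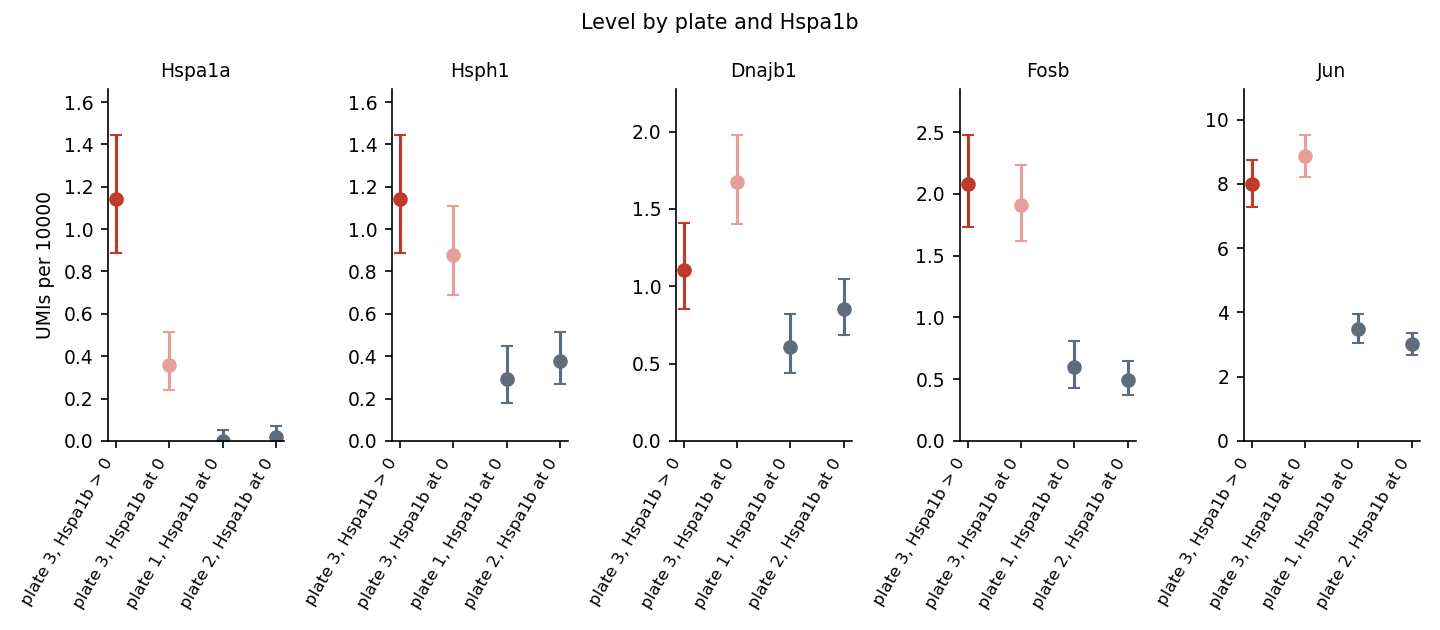
Level (UMIs per 10000, with exact Poisson 95% intervals) of 5 genes in the positive cells of plate 3, its cells at 0, and the cells at 0 of plates 1 and 2. Fosb and Jun stand at 2.08 and 8.00 in positive cells and at 1.91 and 8.86 in cells at 0 of plate 3, all above plates 1 and 2, while Hspa1a is at 1.14 in positive cells and 0.359 in cells at 0.

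Surface CD5, which follows the strength of self-reactive T cell receptor signals and was measured apart from the RNA, was close in both groups of plate 3. Median CD5 fluorescence was 42280 in positive cells and 45073 in matched cells of plate 3, a log2 difference of -0.09. The differences in plates 1 and 2 were -0.07 and -0.77, and an exact two-sided sign-flip permutation test over the 3 plates gave p = 0.25, the smallest this design allows. By the authors' CD5 class, 30 of 80 Low cells (37.5%, 26.9 to 49.0), 63 of 174 Middle cells (36.2%, 29.1 to 43.8) and 23 of 70 High cells (32.9%, 22.1 to 45.1) of plate 3 were positive.

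Positive cells lay all over the plate. Over 8 blocks of 48 wells the positive share was 28.6% to 45.0%, in no order along the plate. Wells at the plate's edge had 25 positive of 58 cells (43.1%, 30.2 to 56.8) and inner wells 91 of 266 (34.2%, 28.5 to 40.3), intervals that overlap. Each well carries its own cell barcode, so plate 3 shares 150 and 173 well numbers with plates 1 and 2, which are separate libraries.

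Both groups were CD4 T cells by their transcripts. Cd4 was found in all 115 positive and all 115 matched cells, and Cd3e in 103 positive and 100 matched cells. Cd8a was found in 0 positive cells, which allows up to 2.61% of cells with a UMI (3 counts of 115) and sets no limit on cells that express it, and in 2 matched cells. Foxp3, which marks regulatory T cells, was found in 22 positive cells (19.1%, 12.4 to 27.5) and 15 matched cells (13.0%, 7.49 to 20.6), intervals that overlap. Together, 5 regulatory T cell markers summed to 84.0 UMIs in 34 positive cells and 53 in 34 matched cells. Among them, Il2ra had 18.0 UMIs in positive cells, 66.7% of them in 1 cell, and 1 in matched cells. Ctla4 had 2 UMIs in positive cells and 8 in matched cells. The 5 B cell markers in the table summed to 81.2 UMIs in 13 positive cells and 30 in 15 matched cells, at most 89.0 UMIs per 10000 in 1 positive cell and 30.9 in 1 matched cell. With the Foxp3 cells and the cell with most Kcnq1ot1 left out of both groups, the Hspa1a ratio was 3.14 (1.73 to 6.02). The part of the B cell transcripts in any ratio was not tested.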

How the data were processed

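The authors deposited expected counts, as transcripts estimated from 6-base UMIs, for 14355 genes and 84 spike-in transcripts in each cell; 0.812% of all gene values, zeros included, are not whole numbers. Reads were mapped with BWA to mm10, per the submitters' processing notes; their versions and the rule for shared reads are not stated there. CD5 was deposited as a fluorescence signal, with a class assigned by the authors. The plates held 726230 to 1404160 UMIs, with medians of 3749 to 5449 UMIs per cell. No doublet caller was run, since single cells were sorted into wells.

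Positive cells were paired with cells at 0 by optimal assignment on log2 total UMIs, without spike-ins, Hspa1a and Hspa1b, at most 0.2 apart. Ratios are of UMIs scaled to each group's total, given for genes with at least 30 UMIs over both groups, and past 2-fold means a ratio of at least 2 or at most 0.5. For the test over plates, sums were rounded to whole numbers and fitted with edgeR 4.0.16 (TMM, filterByExpr, plate as a block because both sums come from the same plate, Benjamini-Hochberg) in R 4.3.3. Deviations of the paired sums correlated at 0.0427, 0.272 and 0.164 in plates 1, 2 and 3 over 546 genes. DESeq2 1.42.0, limma 3.58.1, Python 3.11.15, numpy 2.4.6, pandas 2.3.3, scipy 1.17.1 and matplotlib 3.10.9 were also used. Both procedures were tested on simulated data.

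The naming rule takes, in plate 3, up to 14 higher and 10 lower genes by the interval bound nearest 1, found in at least 10 cells of the higher group with at most 20% of its UMIs in 1 cell, up to 6 members per list with at least 15 UMIs, and, where fewer than 4 pass the test over plates, the 4 of smallest p in each direction. Genes that the rule or the lists name and that are not reported here still count in the totals. Named for other reasons, after their values were seen, were the remaining list members given in the text. The cells, the 10 lists and the tests were chosen with earlier results of these data known. The alternatives with 5 or more Hspa1b UMIs and without the cell with most Hspa1b were added after seeing the data.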

Additional observations from a re-analysis of the deposited data

How the results depend on the processing

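The ratio of Hspa1a ranged from 3.14 to 3.67 over the alternatives, and that of Fosb from 1.09 to 1.601. Counts of genes past 2-fold, 173 higher and 189 lower, depended on the UMI minimum, with 423 higher and 472 lower at 15 UMIs and 33 higher and 40 lower at 60 UMIs, where the minimum itself sets which low genes enter. They were 52 higher and 96 lower in thinned cells, 56 higher and 77 lower at 5 or more Hspa1b UMIs, 141 higher and 219 lower against all cells at 0, and 183 higher and 172 lower with TMM factors; the cause was not tested. With 2 or more Hspa1b UMIs, 1 heat shock gene (Hspa14, higher) and 2 immediate early genes (Myc higher, Csrnp1 lower) were past 2-fold, and with 5 or more 1 immediate early gene was (Cd69, lower). At 5 or more, Fam111a, Psma4 and Bst2 had log2 ratios of -0.0117 each, below 0 where the other comparison was above 0. Of 663 recomputed ratios of 85 named genes, 620 were counted as inside the interval of the ratio over all pairs. Another 40 were counted as moved, and these 3 as reversed. A ratio inside that interval can still change its side of 2-fold, as Slc3a2 did against all cells at 0, at a log2 ratio of 0.81. Only genes past 2-fold over all pairs could be counted as reversed. Smaller ratios that changed their side of 1 are counted among the 620 and the 40.

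The test over plates called 0 genes under every alternative run. Without the replicate block it called 0 of 734 genes (14 had an unadjusted p below 0.05), and leaving out each plate in turn gave 0 to 0. The log2 difference in CD5 was -0.11 against all cells at 0, -0.25 at 2 or more Hspa1b UMIs and -0.11 as a mean. Depth limits all of this: a gene with 30 UMIs over both groups can pass 2-fold on a few molecules.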

Other observations

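Genes of the type I interferon response gave a split picture. The summed list had a median of 16.9 UMIs per 10000 in positive cells and 21.4 in matched cells, and the positive cell was the lower one in 75 of 115 pairs. Of 19 members with at least 30 UMIs, 9 had a ratio above 1, and the median log2 ratio was -0.06. Over the alternatives this median was between -0.10, at 5 or more Hspa1b UMIs, and 0.23, at 2 or more, so its sign depended on the setting. Slfn1, a growth regulator of the Schlafen family, had 182 UMIs in positive cells and 285 in matched cells, a ratio of 0.611 (0.505 to 0.739) that lay between 0.577 and 0.688 over the alternatives. Ifit1, a sensor of foreign RNA, was past 2-fold at 2.56 (1.64 to 4.11), but 48.1% of its UMIs in positive cells came from 1 cell.

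Of 22 genes of the T cell receptor complex and its proximal signalling, 9 had a ratio above 1 and the median log2 ratio was -0.03. Themis, which tunes receptor signalling, was past 2-fold, with 19 UMIs in positive cells and 40 in matched cells, a ratio of 0.455 (0.249 to 0.804). Of 6 activation genes, Nfkb2, an NF-kB subunit, was past 2-fold at 2.55 (1.146 to 6.24). Il2ra, which encodes CD25, had 18.0 UMIs in 6 positive cells and 1 UMI in 1 matched cell, and 66.7% of the positive cells' UMIs came from a single cell; the sort had gated CD25 out.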
